A study of Mus musculus with 7 samples.

Results

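The ATP-binding cassette (ABC) transporters are a family of proteins that use ATP to move drugs, lipids, metals, peptides and metabolites across membranes, sorted by sequence into subfamilies named by the letters A to G. The members examined here are the genes of the deposited expression table whose mouse symbol starts with Abc, a subfamily letter from a to g and a number, which gave 34 of its 16760 genes. They are 7 of the 16 genes that the GENCODE M21 annotation names in subfamily A, 8 of 10 in B, 7 of 10 in C, all 4 in D, the only gene of E, all 3 in F and 4 of 6 in G. The other 16 of these 50 annotated genes, among them the bile salt exporter Abcb11 and the sterol transporter pair Abcg5 and Abcg8, were not analysed here. Within the table the genes were picked by symbol alone, but the family itself was chosen with earlier results of these data known. The table had also been filtered for low genes by a rule that the sources used here do not give.

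RNA was sequenced from CD150-negative mouse cells of strain C57/B6 that carry the label HSC (haematopoietic stem cell), in 4 wild-type (WT) libraries and 3 libraries that lack material of band 5G2 (5G2del). Slamf1 encodes CD150, a surface protein of stem cells, and no other marker of the sort is named. The comparison asks how this loss on chromosome 5, the mouse counterpart of material in human 7q22, bears on gene expression. The sources used here do not give any treatment, the age and sex of the animals, the extent or zygosity of the deletion, or whether libraries came from separate or pooled animals. The p-values therefore measure only how these libraries spread, which may be technical. The 5G2del libraries are lettered A to C and the WT libraries A to D, because the table shows the group of each and not its sample number.

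A typical member has membrane-spanning domains that form the path for the substrate and nucleotide-binding domains that bind and split ATP, with a Walker A motif and a signature motif in each cassette. Subfamilies A to D and G hold pumps of the cell surface, mitochondria, peroxisomes and lysosomes, whereas E and F keep the cassettes but have no membrane domain and act on ribosomes and in translation. In bone marrow the family is best known for Abcg2, the pump that expels Hoechst dye and gives primitive cells their side population phenotype.

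The sequences that follow show the signature motif, the feature all subfamilies share, in the member with the highest WT level per length of subfamilies A, C, E, F and G and in the pair of genes whose libraries separated by genotype, Abcf2 and Abcg2. Each is a stretch of the GENCODE M21 coding transcript, 5′ to 3′, with the motif codons in capitals. The first copy is shown where a gene has more than one.
Abca2: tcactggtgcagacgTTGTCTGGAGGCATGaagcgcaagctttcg
Abcc1: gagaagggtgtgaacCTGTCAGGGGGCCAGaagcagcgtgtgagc
Abce1: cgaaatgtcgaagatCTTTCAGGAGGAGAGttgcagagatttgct
Abcf1: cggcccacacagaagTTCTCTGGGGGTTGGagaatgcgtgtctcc
Abcf2: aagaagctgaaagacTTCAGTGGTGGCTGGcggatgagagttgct
Abcg1: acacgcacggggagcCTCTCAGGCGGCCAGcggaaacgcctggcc
Abcg2: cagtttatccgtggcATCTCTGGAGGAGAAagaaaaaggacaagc
The coding parts held 2 Walker A motifs in 21 members, 1 in 12 members and none in Abcg3. The signature in its canonical form was present in 18 of the 34, including Abcc1, Abcg1 and Abcf1 of the genes shown. In Abcf1 the canonical form is copy 2, which is not printed. The search, which looked downstream of a Walker A motif, found no signature in Abcd4 or Abcg3.

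Expected counts over all listed genes ran from 38741356 to 47664360 in the 5G2del libraries and from 37930174 to 52194274 in WT. A floor of 3 counts lay between 0.0538 and 0.086 CPM (counts scaled to the library size that the values imply). It covers counting error alone, since amplified reads do not stand for separate molecules. The implied size was not a plain total of counts. In 5G2del-C and WT-C it was 41220903 and 34865420, below the 47664360 and 42038974 expected counts over listed genes. In WT-B, 1104 genes were at 0 counts, whereas the other libraries had 83 to 492 such genes. All 12 HSC and early progenitor markers were measured and none was at 0, with a summed level of 2027 to 2196 CPM in 5G2del and 1957 to 2420 CPM in WT. Kit and Cd34 were near or above 8 log2 CPM in every library, whereas Slamf1 was low, at 0.40 to 0.65 log2 CPM in 5G2del and -2.22 to -0.26 in WT. Of 11 neutrophil and monocyte markers 8 were measured, and they summed to 1566 CPM for 5G2del-A and 520.6 CPM for WT-A against 165.7 to 242.3 CPM in the other 5 libraries. Lyz2 of this list went otherwise, lowest in WT-A at 7.30 log2 CPM and highest in 5G2del-C at 7.83. The rest were highest in 5G2del-A, followed by WT-A. Of 12 erythroid markers 10 were measured, with sums of 39.59 to 99.26 CPM in 5G2del and 76.47 to 237.7 CPM in WT. The 4 measured B lineage markers of 8 summed to 25.85 to 202.9 CPM in 5G2del and 10.43 to 28.02 CPM in WT. Separated groups were seen for 3 of 4 measured T and NK markers, 1 higher and 2 lower in 5G2del, beside 5.7% of all genes. The same held for 1 of 7 measured megakaryocyte and platelet markers and for Slamf1 among the 12 HSC markers, both higher. That megakaryocyte marker and 1 of the lower T and NK markers each had 2 libraries at 0 counts, so their separation rests on values near the floor. No marker of these lists passed the test. In these bulk libraries, fewer cells of a type and less RNA per cell cannot be told apart.

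No ABC transporter passed the test of 5G2del against WT at an adjusted p under 0.05 (limma, Benjamini-Hochberg over all genes; 0% of all genes passed), and the lowest adjusted p of a member was 0.989. The lowest of any gene was 0.151. At an unadjusted p under 0.05 there were 2 of 34 members, which is 5.88%, beside 3.91% of all genes. The groups did not overlap for 2 members, again 5.88%, beside 5.7% of all genes, so both shares were near the background. The members concerned were the same pair: Abcf2, which was higher in all 3 5G2del libraries than in any WT library, and Abcg2, which was lower in all 3.

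In direction, 23 members had a lower mean in 5G2del and 11 a higher one. The lower share was 67.6% of members and 46.7% of all genes, and the median log2 fold change (5G2del over WT) was -0.14 over the members and 0.03 over all genes. The median level of the members was 4.12, 3.67 and 3.66 log2 CPM in 5G2del libraries A to C. In WT libraries A to D it was 3.88, 4.18, 4.15 and 3.92, so the groups overlapped. By subfamily, the median was 0.08 in A, with 4 of 7 members higher, -0.26 in B, with 2 of 8 higher, and -0.14 in C, with 2 of 7 higher. It was -0.32 in D, with 1 of 4 higher, -0.09 for the only member of E, 0.18 in F, with 2 of 3 higher, and -0.55 in G, where all 4 members were lower. The pooled SD of the median level between libraries of a group was 0.21 over the family. By subfamily it was 0.88 in A, 0.45 in B, 0.56 in C, 0.21 in D, 0.15 in E, 0.19 in F and 0.37 in G. The medians of fold changes are descriptions that count Abca13 among the higher and Abcc9 among the lower members, and most rest on members whose fold change was of the size of its standard error (SE) or smaller.

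**Figure D1:**
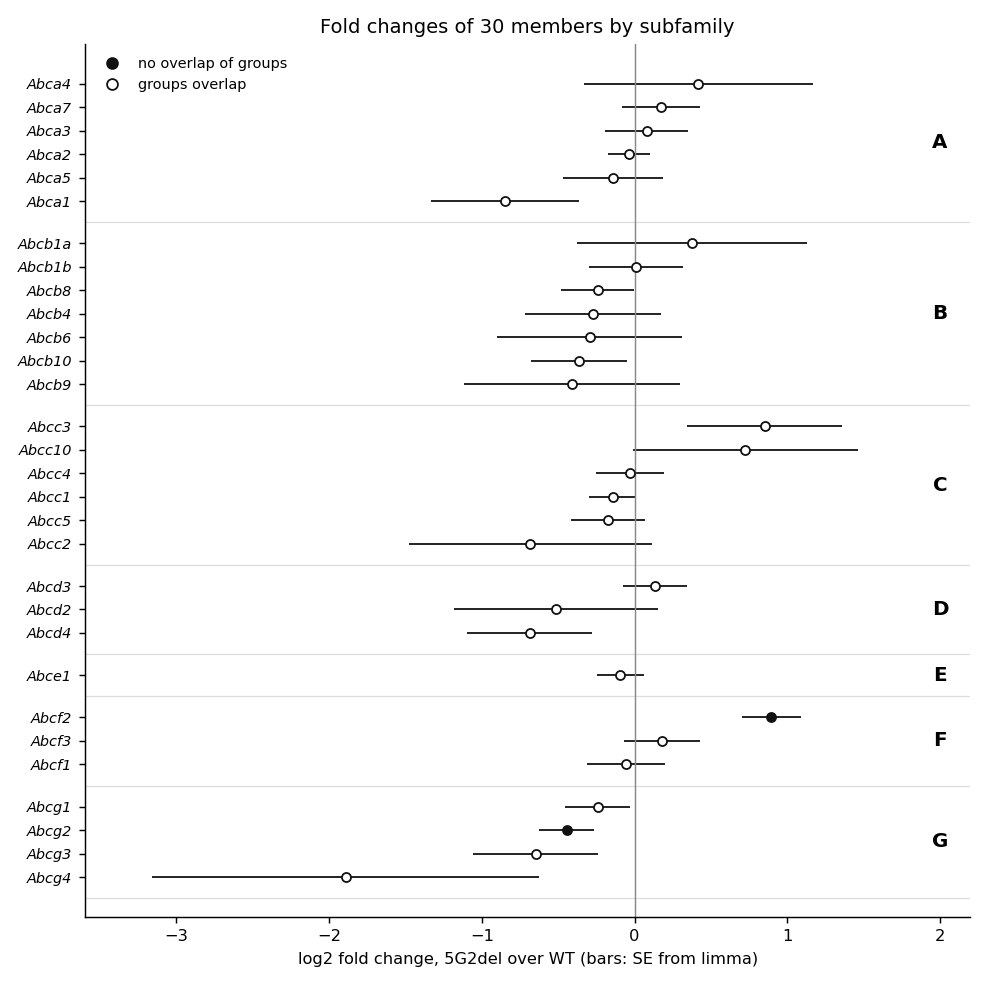
Log2 fold change of 5G2del over WT (x axis) for 30 of the 34 members (y axis), grouped by subfamily letter at the right. Points are estimates from limma and bars are their SE; filled points mark Abcf2 and Abcg2, at 0.90 and -0.44, whose groups did not overlap. Abca13 and Abcc9, with libraries at 0 counts, are not plotted, and the point of Abcg4 depends on the 0.5-count offset.

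Levels of different members were compared per length, as log2 CPM per kilobase of exon, in the WT libraries. Abce1, the ribosome recycling factor, had the highest WT median at 3.63, followed by Abcf1 at 3.46, the endolysosomal lipid transporter Abca2 at 3.28 and Abcf2 at 3.17. The leading member of subfamily G was the sterol exporter Abcg1 at 2.55, and that of C was the multidrug resistance protein Abcc1 at 2.53. Abcg2 stood at rank 11 of 34, at 2.36. Of the 33 pairs of neighbours in this order, 30 differed by no more than their pooled SD over the WT libraries, so the order is coarse. The exceptions were Abcc4 over Abca7, Abca3 over Abca1 and Abca5 over Abcc3.

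All 3 members of subfamily F and the only member of E, none of which spans a membrane, lay among the 10 highest by exon length, whereas with the longest transcript as length Abcf3 was at rank 12. At the other end were the large transporter Abca13, with a WT median of -9.39 and counts of 0 in 3 of the 7 libraries, and the potassium channel subunit Abcc9, with a WT median of -4.90. Abcf2 had the highest level per kilobase of all 34 members in each 5G2del library, at 4.26, 4.08 and 3.81, whereas it held ranks 3 to 6 in the WT libraries, at 2.88 to 3.38. With the longest transcript as the length in place of all exons, Abcf2 was at rank 1 or 2 in the 5G2del libraries and at ranks 6 to 10 in WT.

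**Figure D2:**
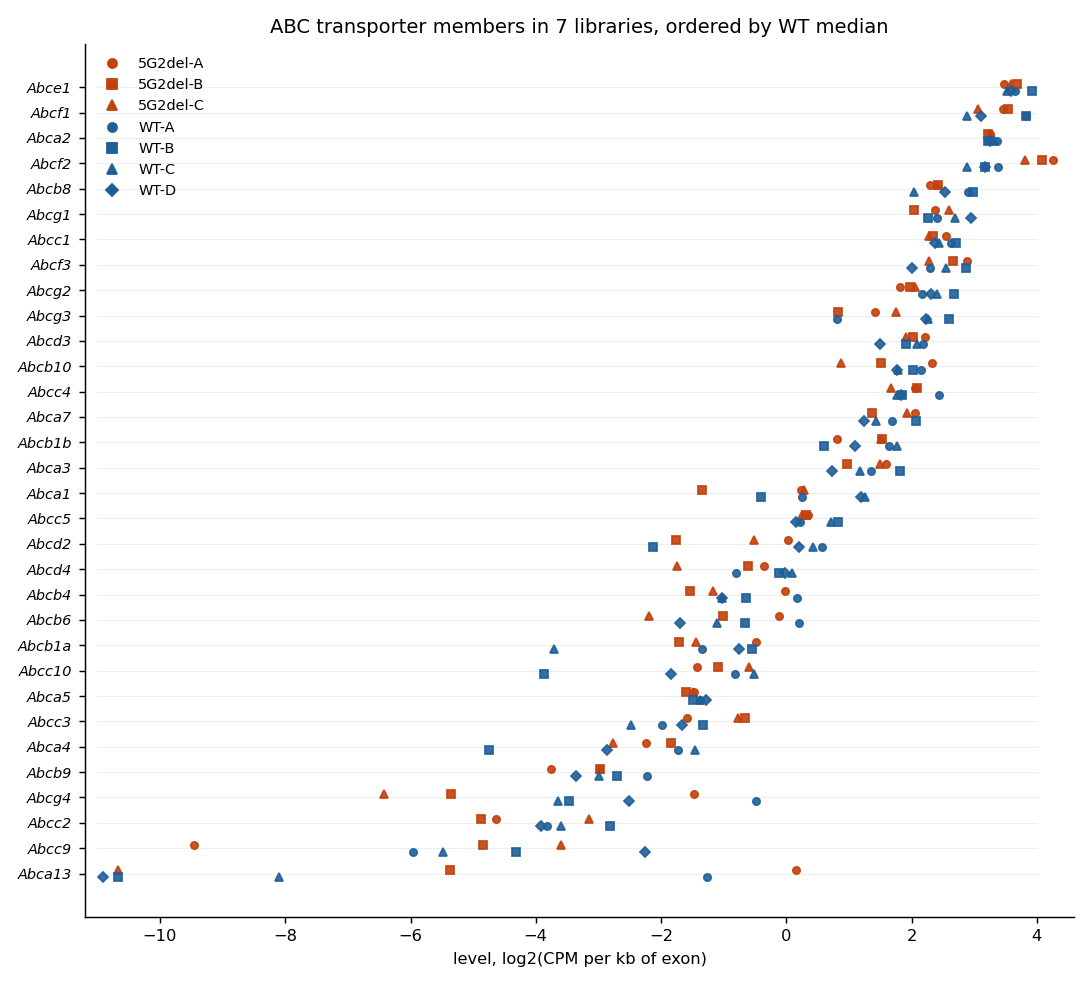
Level of 32 of the 34 members in log2 CPM per kilobase of exon (x axis), ordered from the highest to the lowest WT median (y axis), with 1 point per library, orange for 5G2del and blue for WT. Abcf2 shows 3 orange points to the right of its blue ones, and Abcg2 shows 3 to the left, while the widest spread is that of Abca13 at the bottom.

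The drug efflux members pump xenobiotics and conjugates out of cells. Of the 9, 4 were higher and 5 lower in 5G2del (median log2 fold change -0.03), and Abcg2 was the one whose groups separated. That is 11.1% of the list, beside 5.7% of all genes. The breast cancer resistance protein Abcg2 (GRCm38 chr6:58584523-58695676, plus strand) was at 4.84, 5.00 and 5.08 log2 CPM in the 5G2del libraries A, B and C and at 5.19, 5.70, 5.43 and 5.34 in the WT libraries A to D, an order kept for all values below. The highest 5G2del library therefore lay below the lowest WT library, WT-A, by a narrow gap. The means were 4.97 ± 0.13 (SD, n = 3) and 5.42 ± 0.21 (SD, n = 4). The log2 fold change was -0.44 ± 0.18 (SE), or 0.735 times the WT level.

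For Abcg2 the unadjusted limma p was 0.0306, rank 376 of 16760, and the adjusted p was 0.989, so the difference did not pass the test. It rested on 1201 to 2158 expected counts per library, and no 100-base window of its longest transcript occurred in another gene. The authors' deposited table gives Abcg2 a log2 fold change of -0.44 with a p of 0.0343. Leaving out each library in turn moved the log2 fold change between -0.52 and -0.35, the groups stayed apart in 7 of 7 such fits, and the unadjusted p was under 0.05 in 3 of 7, with 0.101 the highest, reached without 5G2del-A.

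Abcg3, a rodent relative of Abcg2, was at 3.25, 2.65 and 3.58 log2 CPM in 5G2del against 2.64, 4.43, 4.09 and 4.06 in WT. WT-A was its lowest library and lay apart from the other 3 WT libraries, so the groups overlapped. Its log2 fold change was -0.65 ± 0.41.

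The P-glycoprotein of mice is encoded by a pair of genes next to each other on chromosome 5. Abcb1a was at 1.98, 0.74 and 1.01 log2 CPM in 5G2del and 1.10, 1.90, -1.25 and 1.70 in WT. Abcb1b, the more abundant of the pair per length, with WT medians of 1.37 against -1.05 log2 CPM per kilobase, was at 3.81, 4.53 and 4.51 log2 CPM in 5G2del and 4.64, 3.60, 4.77 and 4.10 in WT. The groups overlapped for both genes, with log2 fold changes of 0.38 ± 0.75 for Abcb1a and 0.01 ± 0.31 for Abcb1b. In WT-C the lowest Abcb1a and the highest Abcb1b value occurred together, and without that library the Abcb1a log2 fold change was -0.33. For Abcb1b the sign was negative after quantile normalization and after centring the libraries on their medians.

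The counts of this pair are uncertain because the genes share sequence. Of the 100-base windows in their longest transcripts, 8.51% for Abcb1a and 8.89% for Abcb1b occurred in another gene. The longest identical run was 338 bases of coding sequence, at bases 1509 to 1846 of the Abcb1a transcript. The stretch of it that holds the first signature motif (capitals), bases 1671 to 1805, is shown because a 100-base read inside it matches both genes.
Abcb1a and Abcb1b: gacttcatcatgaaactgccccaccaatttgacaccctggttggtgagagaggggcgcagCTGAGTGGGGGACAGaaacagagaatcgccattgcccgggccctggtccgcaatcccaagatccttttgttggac

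The multidrug resistance proteins of subfamily C export conjugates of glutathione and glucuronic acid, nucleotides and leukotrienes. Abcc1 varied little, at 6.47, 6.26 and 6.20 log2 CPM in 5G2del and 6.55, 6.62, 6.35 and 6.29 in WT, a log2 fold change of -0.14 ± 0.15. Abcc4, the exporter of cyclic nucleotides, was at 4.73, 4.77 and 4.35 in 5G2del and 5.11, 4.52, 4.44 and 4.50 in WT (-0.03 ± 0.22). The groups overlapped for both, and for Abcc4 WT-A stood above the rest of WT.

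Abcc5 was at 3.76, 3.72 and 3.66 log2 CPM in 5G2del and 3.63, 4.24, 4.13 and 3.57 in WT (log2 fold change -0.17 ± 0.24). Abcc3, an exporter of bile acids and glucuronides, was at 0.92, 1.85 and 1.74 in 5G2del and 0.53, 1.19, 0.03 and 0.85 in WT. 5G2del-B and 5G2del-C exceeded every WT library for Abcc3, but 5G2del-A lay within them, and its log2 fold change of 0.85 ± 0.51 had an unadjusted limma p of 0.12.

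Abcc10 was at 1.35, 1.69 and 2.19 log2 CPM in 5G2del and 1.96, -1.09, 2.26 and 0.93 in WT, and Abcc2, the canalicular exporter of liver, at -1.54, -1.78 and -0.06 against -0.73, 0.28, -0.51 and -0.82. The groups overlapped for both. The log2 fold change of Abcc10 was 0.73 ± 0.74 and was 0.02 without WT-B, its lowest library. That of Abcc2 was -0.68 ± 0.79 and ran from -1.21 without 5G2del-C to -0.35 without 5G2del-B. Of 20 listed regulators and enzymes linked to drug efflux, such as the antioxidant regulator Nfe2l2 and the aryl hydrocarbon receptor Ahr, 17 were measured and none had an unadjusted p under 0.05.

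The members that export cholesterol and phospholipids, of which 8 of 11 were measured, had lower 5G2del means for 6 and higher for 2 (median log2 fold change -0.19), and none passed the test. Abca1, which loads cholesterol onto apolipoprotein A-I, was at 3.61, 2.03 and 3.65 log2 CPM in 5G2del and 3.62, 2.98, 4.63 and 4.57 in WT. WT-C and WT-D exceeded all 5G2del libraries, and WT-A and WT-B lay within them, for a log2 fold change of -0.85 ± 0.48. Its partner in sterol export, Abcg1, was at 5.24, 4.91 and 5.46 in 5G2del and 5.28, 5.13, 5.56 and 5.82 in WT, a log2 fold change of -0.24 ± 0.21 with overlap. Macrophages express both genes strongly. Of 11 macrophage and dendritic markers 6 were measured, with sums of 12.83 to 23.05 CPM in 5G2del and 12.53 to 23.72 CPM in WT. Axl, at 2.79 to 3.89 log2 CPM, was the highest of the 6 in every library but 5G2del-A, where Vcam1 was at 3.45. The sums therefore do not weigh the markers alike. Of the 6, 3 had lower and 3 higher means in 5G2del, and 2 of the lower ones, Cd163 at -1.14 ± 0.54 and C1qb at -1.64 ± 0.88, had separated groups. Over all genes, 5.7% had separated groups. The part of such cells in the Abca1 and Abcg1 values was not tested.

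Abca2 was the steadiest member, at 6.32, 6.27 and 6.34 log2 CPM in 5G2del and 6.43, 6.28, 6.37 and 6.31 in WT. Its residual SD of 0.06 was at percentile 1 of the 500 genes nearest in mean level. Abca5, a lysosomal lipid transporter, was steadier still for its level, from 1.91 to 2.04 log2 CPM in 5G2del and 2.03 to 2.23 in WT, with a residual SD of 0.08 and a log2 fold change of -0.14 ± 0.33. The surfactant lipid transporter Abca3 and the phagocytosis-linked Abca7 had log2 fold changes of 0.08 ± 0.27 and 0.17 ± 0.26, and 10.1% of the 100-base windows of Abca3 occurred in other genes.

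Abcb4, the phosphatidylcholine floppase, was highest in WT-A and 5G2del-A, at 3.40 and 3.21 log2 CPM, and between 1.70 and 2.58 in the other 5 libraries, a log2 fold change of -0.27 ± 0.45. Abcg4, a neuronal relative of Abcg1, spanned 0.90 to -4.04 in 5G2del and 1.90 to -1.27 in WT on 2 to 208 expected counts (-1.89 ± 1.27). Its lowest library was under the counting floor, so that fold change depends on the 0.5-count offset of the values. Of 15 partner genes of cholesterol efflux, such as the oxysterol receptor Nr1h2, 12 were measured, and none had an unadjusted p under 0.05 or separated groups.

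Mitochondrial members serve haem and iron-sulfur cluster synthesis, which red cell precursors use heavily. All 4 had lower 5G2del means (median log2 fold change -0.27), and for none did the groups separate. Abcb8 of the inner membrane had a log2 fold change of -0.24 ± 0.24, from 4.54 to 4.66 in 5G2del and 4.29 to 5.23 in WT.

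Abcb10, induced in erythroid cells, was at 4.43, 3.61 and 2.98 log2 CPM in 5G2del and 4.26, 4.13, 3.88 and 3.88 in WT (-0.36 ± 0.32). Abcb6, a porphyrin transporter, was at 2.30, 1.40 and 0.21 in 5G2del and 2.61, 1.76, 1.31 and 0.72 in WT (-0.29 ± 0.60). Both were highest in 5G2del-A, WT-A and WT-B and lowest in 5G2del-C.

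The 10 erythroid markers had a mean of 1.95, 0.05 and -1.40 log2 CPM in 5G2del and of 2.64, 2.63, -0.07 and 0.29 in WT. By this mean the same 3 libraries were highest and 5G2del-C was again lowest, with Slc4a1 and Hba-a2 among those at 0 counts there. By summed CPM the order was another: WT-B was highest at 237.7, followed by 5G2del-B at 99.26 and WT-D at 93.56, and 5G2del-A was second lowest at 69.9. All 10 had a lower mean in 5G2del and none passed the test. The part of erythroid RNA in the Abcb10 and Abcb6 values was not tested. Of the 100-base windows of Abcb6, 86.6% occurred in an overlapping gene model on the same strand, Gm29253, and 5.61% of those of Abcb10 occurred in Gm45890.

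Among 19 partner genes of iron-sulfur and haem synthesis, 18 were measured, 9 of them higher and 9 lower (median log2 fold change 0.00). At an unadjusted p under 0.05 there were 2 of them, which is 11.1%, beside 3.91% of all genes. One was the mitochondrial glycine carrier Slc25a38, with a higher mean in 5G2del at 0.92 ± 0.36 (limma unadjusted p = 0.0256). Its groups overlapped and its adjusted p was 0.989.

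**Figure D3:**
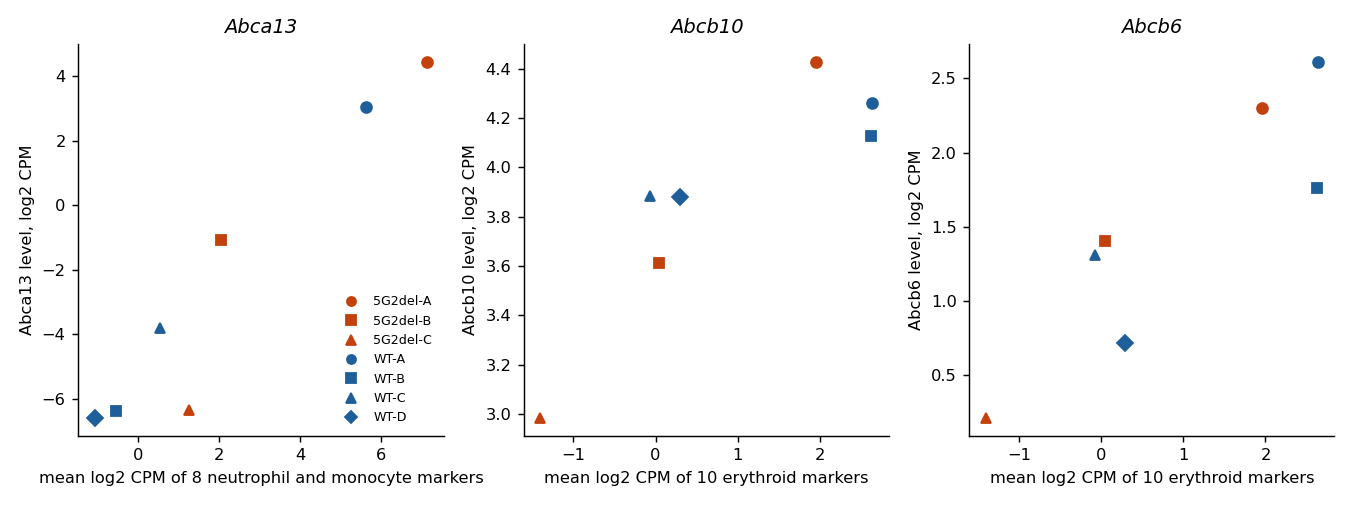
Level of Abca13, Abcb10 and Abcb6 in log2 CPM (y axes) against the mean log2 CPM of 8 neutrophil and monocyte markers (left) or 10 erythroid markers (middle and right) on the x axes, with 1 point per library, orange for 5G2del and blue for WT. Abca13 is highest in 5G2del-A and WT-A, the libraries with the highest mean of the neutrophil and monocyte markers. Abcb10 and Abcb6 are highest in 5G2del-A, WT-A and WT-B.

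Subfamily D and Abcb9 act in peroxisomes and lysosomes. Of these 5 members 4 had lower and 1 a higher 5G2del mean (median log2 fold change -0.41), and none passed the test. The fatty acid importers Abcd2 and Abcd3 had log2 fold changes of -0.51 ± 0.67 and 0.13 ± 0.21, and Abcd2 was at 0.45 in WT-B and 2.77 to 3.15 in the other WT libraries.

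Abcd4, the lysosomal vitamin B12 transporter, was at 2.65, 2.39 and 1.26 log2 CPM in 5G2del and 2.19, 2.89, 3.09 and 2.98 in WT (-0.69 ± 0.41). WT-B, WT-C and WT-D exceeded all 5G2del libraries, and WT-A lay among them. Abcb9, the lysosomal peptide transporter, was low throughout, from -1.27 to 0.26 log2 CPM (-0.41 ± 0.71). Of 16 partner genes of peroxisomal fatty acid oxidation and vitamin B12 handling, 15 were measured, and none had an unadjusted p under 0.05 or separated groups.

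The 4 members without a membrane domain had 2 higher and 2 lower means (median log2 fold change 0.06). Abcf2, whose yeast relative takes part in ribosome assembly, was at 5.62, 5.44 and 5.17 log2 CPM in 5G2del and at 4.74, 4.53, 4.24 and 4.53 in WT. The lowest 5G2del library thus lay well above the highest WT library. The means were 5.41 ± 0.23 (SD, n = 3) and 4.51 ± 0.20 (SD, n = 4). The log2 fold change was 0.90 ± 0.19 (SE), or 1.86 times the WT level.

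The unadjusted limma p of Abcf2 was 0.00074, rank 9 of 16760 genes, but the adjusted p was 0.989, so it did not pass the test. In the authors' deposited table Abcf2 has a log2 fold change of 0.88 and a p of 0.000688, rank 5. By p its rank was 52 with limma without the trend, 50 without 5G2del-A and 40 without 5G2del-B. In the other alternative fits it was 5 to 18. Leaving out each library in turn gave log2 fold changes from 0.79 to 1.02, with separated groups and an unadjusted p under 0.05 in 7 of 7 fits. The value rested on 659 to 2068 expected counts per library, the gene has a single annotated transcript, no annotated gene overlaps it, and no 100-base window of it occurred in another gene.

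Abcf2 lies on the same chromosome as the deletion but far from band 5G2, at GRCm38 chr5:24565345-24577467 on the minus strand. This is 111.51 Mb from Rasa4, the first gene of a stretch between Rasa4 and Zan (chr5:136083916-137477064) used here as a marker of the band, since the ends of the deletion are not known. The 5 listed genes on each side of Abcf2 had log2 fold changes from -0.44 for Gbx1 to 0.40 for Gm26648. Their unadjusted p values were 0.312 or greater, and none of the 10 had separated groups.

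**Figure D4:**
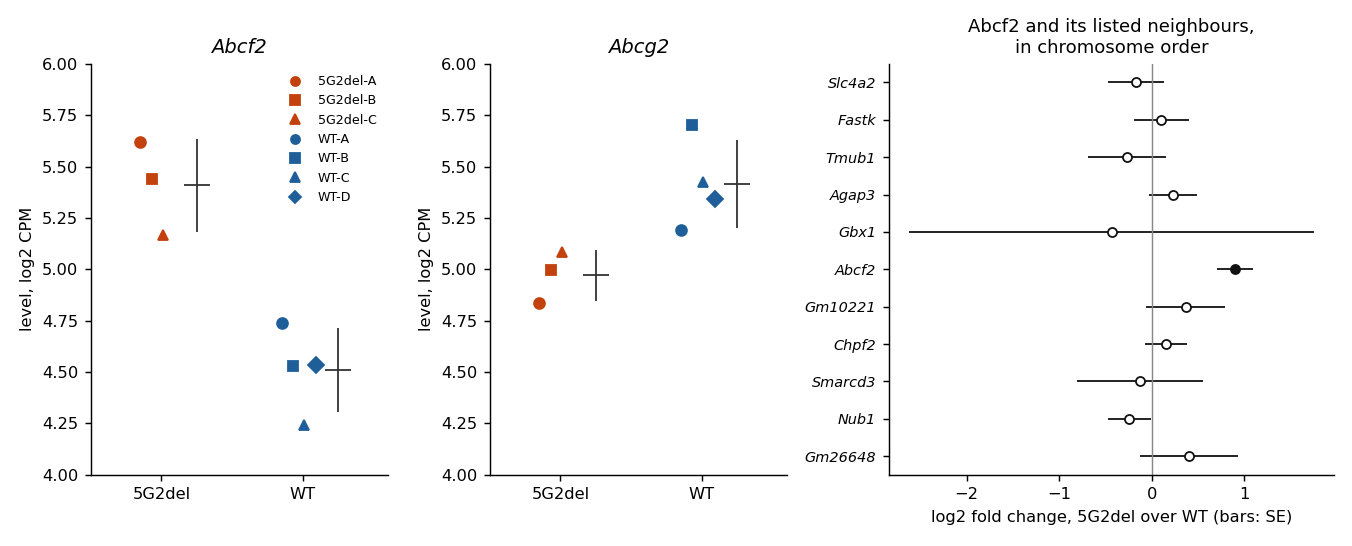
Left and middle, level of Abcf2 and Abcg2 in log2 CPM (y axes) by group, with 1 point per library and the mean and SD beside them. Right, log2 fold change of 5G2del over WT with SE bars (x axis) for Abcf2 (filled) and the 5 listed genes on each side of it in chromosome order: Abcf2 is at 0.90 and its neighbours lie between -0.44 and 0.40. The lowest point, Gbx1, is of a gene near the counting floor.

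For the other members without a membrane domain the groups overlapped. Abcf1, which binds the initiation factor eIF2, was at 5.60, 5.67 and 5.21 log2 CPM in 5G2del and 5.96, 5.97, 5.03 and 5.25 in WT. Its log2 fold change was -0.06 ± 0.26 whose sign turned when 5G2del-C, WT-A or WT-B was left out, at 0.09, 0.08 and 0.08. Abcf3 was at 4.12 to 4.71 in 5G2del and 3.84 to 4.70 in WT (0.18 ± 0.25). Abce1 was at 6.06, 6.27 and 6.18 in 5G2del and 6.24, 6.51, 6.11 and 6.18 in WT (-0.09 ± 0.16). Of 15 genes of ribosome recycling and translation control, 12 were measured and none had an unadjusted p under 0.05. In that list only the ribosome collision sensor Zfp598 had separated groups, at 0.27 ± 0.18. This is 8.33% of the measured genes of the list, beside 5.7% of all genes. The gap was very small, from 4.72 log2 CPM in WT-A to 4.75 in 5G2del-A.

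Of chromosome 5 as a whole, 7 members lie on it: Abcb1a, Abcb1b, Abcb4, Abcb8, Abcb9, Abcf2 and Abcg3. None is inside the stretch from Rasa4 to Zan, and the nearest, Abcb9, is 11.99 Mb away. Apart from Abcf2, their unadjusted limma p values were 0.144 or greater. The 34 members are spread over 17 chromosomes.

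The last members have roles outside these groups. Abca13, a very large member of the lipid transporter subfamily, was at 4.46, -1.07 and -6.37 log2 CPM in 5G2del and 3.04, -6.37, -3.80 and -6.60 in WT. This corresponds to 923, 20 and 0 expected counts in 5G2del and 458, 0, 2 and 0 in WT, so it was plentiful in 5G2del-A and WT-A only. Those were the libraries with the highest neutrophil and monocyte markers by their mean log2 CPM, which was 7.13 for 5G2del-A, 5.63 for WT-A and 2.04 or less elsewhere. Lyz2 of that list did not follow this order and was lowest in WT-A, at 7.30. The part of neutrophils and monocytes in the Abca13 values was not tested. Its residual SD of 4.88 was the largest of the family, and its fold change is not given because it depends on the libraries at 0.

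Abcc9 had 0 counts in 5G2del-A and 6 to 85 elsewhere, and it too gets no fold change. Abca4, the retinoid flippase of the eye, was at 0.81 to 1.75 log2 CPM in 5G2del and -1.16 to 2.13 in WT, with the lowest value in WT-B (0.42 ± 0.75). In all, 31 of the 34 members exceeded the floor of 3 counts in every library. The residual SD was over 1 for 7 members and under 0.3 for 11, with a median of 0.44 beside 0.46 over all genes. These raw medians do not allow for level. Ranked among the genes nearest in mean level, the residual SD of the members had a median percentile of 67.2. A typical member thus varied more than most genes of like level.

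Of the family genes named otherwise, the antigen peptide transporters Tap1 and Tap2 were measured and Cftr was not analysed here. Tap1 was at 5.76, 5.42 and 6.15 log2 CPM in 5G2del and 6.27, 6.19, 6.15 and 6.25 in WT. Its groups were separated by a very small gap between 5G2del-C and WT-C, with a log2 fold change of -0.44 ± 0.18 and an unadjusted limma p of 0.0356 (adjusted p = 0.989). Its partner Tap2 overlapped, at 0.27 ± 0.24.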

How the data were processed

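RNA was sequenced in 7 libraries of CD150-negative mouse cells, 3 with the 5G2 deletion and 4 WT. Per the labels' protocols, the RNA was amplified (Ovation RNA-Seq System V2) and read as paired ends. STAR 2.7.9a, RSEM 1.3.0 and limma 3.50.3 are named in the submitters' processing notes, with builds mm10 and GRCh38 given no role. The authors deposited log2 CPM per library, with an offset of 0.5 count, in 1 table with their own log2 fold changes, p-values and q-values. The sources used here do not give the filter on low genes, the scaling, the annotation or the use of strand. RSEM divides reads among similar genes, so values of paralogs and overlapping genes are uncertain. Expected counts were stepped back from the log2 CPM for depth and floors only.

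The comparison was fitted on all 16760 genes with limma 3.58.1 in R 4.3.3 (lmFit, eBayes with a trend), with no covariate, and p-values were adjusted by Benjamini-Hochberg over all genes at a threshold of 0.05. The fit was tested on simulated data. The median log2 fold change of a list is given beside that of all genes. Residual SD is that of the fit, ranked among the 500 genes nearest in mean level. Positions, exon lengths and transcripts come from GENCODE M21 (GRCm38). Shared sequence was counted as 100-base windows of the longest transcript found in another gene. Cassette motifs were searched in the translated coding part of that transcript. 5G2del libraries were compared only with WT.

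Members, lists and rules were chosen with earlier results of these data known. Members named with every library value were Abcg2, those with an unadjusted p under 0.05 or separated groups, the highest per length of each subfamily in WT, and the drug efflux list. Of the genes these rules name, 2 members and a few others are not reported here. Of partner genes, those with an unadjusted p under 0.05 were to be named. Other members given by library, the partner genes named as examples, Zfp598, Tap1, Tap2 and the neighbours of Abcf2 fall outside that rule and were chosen after their values were seen. The alternatives were limma without the trend, quantile normalization, median centring, filters at a mean log2 CPM of 0 or 2, log2(CPM + 1), the authors' deposited table, the longest transcript as length, and leaving out each library.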

Additional observations from a re-analysis of the deposited data

Results flagged for a closer look

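Of the 34 sets of 4 WT values examined, 2 had a library far from the other 3. Chance gives about 1 in 20 of such sets, so 2 of 34 is near the number that chance gives. Abcc4, the exporter of cyclic nucleotides, was at 5.11 log2 CPM in WT-A and at 4.44 to 4.52 in the other WT libraries. Abcd2, a peroxisomal importer of fatty acids, was at 0.45 log2 CPM in WT-B and at 2.77 to 3.15 in the others. WT-B was also the library with the most genes at 0 counts, 1104, and the part of this in the Abcd2 value was not tested. The 3 5G2del libraries were too few for the same examination.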

How the results depend on the processing

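The count of members at an adjusted p under 0.05 was 0 in the limma fit and in all 14 alternative fits. The count at an unadjusted p under 0.05 was 2, became 1 (Abcf2) with limma without the trend, and ran from 1 to 3 when 1 library was left out. The count of members with separated groups was 2 and ran from 2 to 8 with 1 library left out. It was 8 of 34 without 5G2del-A, 4 of 34 without WT-A and 6 of 34 without WT-B. Fewer libraries separate more easily, and 13.8%, 10% and 11.6% of all genes were then separated, beside 5.7% with every library. Whether the member counts differ from these shares was not tested. Abcf2 and Abcg2 were among the separated members in every fit. Abca5 joined them with quantile normalization or median centring. The family's median log2 fold change was -0.14 and stayed between -0.18 and -0.04. The sign of Abcb1b, at 0.01, turned with quantile normalization (-0.034), with median centring (-0.026) and without 5G2del-B, 5G2del-C, WT-B or WT-D, with a leave-one-out range of -0.22 to 0.25. It also turned for Abcb1a without WT-C, over a range of -0.33 to 0.72. The same occurred for Abcc4 without 5G2del-C or WT-A, over -0.10 to 0.13, and for Abcf1 without 5G2del-C, WT-A or WT-B, over -0.23 to 0.087. The subfamily D median, -0.32, was -0.58 without 5G2del-A and -0.04 without 5G2del-B. That of A, 0.08, was negative without 5G2del-A (-0.04), WT-B (-0.06) or WT-D (-0.05) and among members with a mean log2 CPM over 2 (-0.04). With 1 library left out, that of B, -0.26, ran from -0.40 to 0.00 (without WT-A), that of C, -0.14, from -0.20 to -0.07, that of F, 0.18, from 0.04 to 0.34 and that of G, -0.55, from -0.78 to -0.39. With the longest transcript as length, Abcf2 stood at rank 7 in WT in place of 4. The cause of these shifts was not tested. No paired analysis was possible because the columns of the table carry no replicate number. With 3 and 4 libraries, a p that misses the threshold does not show that a member is alike in both groups, and values near the floor depend on the offset.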
